A study of Mus musculus with 6 samples.

Results

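The genes described here encode the proteins that copy DNA and supply its building blocks. They were taken from a list of 39 symbols, and a gene counted as measured when an array probe set (a group of short probes for 1 transcript) was annotated to that gene only. By this rule 38 of the 39 were measured, among 18193 genes with such a probe set; Chaf1a was not analysed here. Each gene was read from its probe set of highest mean over the 6 arrays, and values are intensities on a linear scale as deposited, compared as log2(intensity + 1).

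RNA came from pancreatic tumour cells of C57BL/6 mice aged 11 weeks. All 6 samples carried the tumour alleles that the labels spell KeasG12D/+;p53f/f;ptf1a-Cre, in which Cre is driven by Ptf1a, a gene of the pancreatic lineage. In 3 samples Msi1, which encodes the RNA-binding protein Musashi 1, was wild-type, and in the other 3 the genotype was Msi1 -/-. The comparison asks how transcript levels differ in such tumours without Msi1, and 1 array was hybridised per sample. Each sample's description holds a mouse label of its own (such as Mouse_WT3), but no field states outright that the samples are separate animals, and the p-values cover only the spread among these arrays, which may be technical in part.

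DNA replication begins at origins that are bound by the origin recognition complex and loaded with the ring-shaped Mcm helicase before S phase. Cdc45 and the GINS complex then turn the ring into an active helicase, polymerases and a sliding clamp copy both strands, and ribonucleotide reductase and thymidylate enzymes supply deoxynucleotides. Many of these genes are known targets of E2F transcription factors and are transcribed mainly in dividing cells, which is why they serve as markers of proliferation in tumours.

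The promoters of several members held E2F-type sequences, and 6 promoters are shown because they belong to members that the results below turn on. The letters searched were TTTCCCGC, TTTGGCGC, TTTGCCGC and TTTCGCGC on both strands, in RefSeq windows (GRCm38.p6) from 250 bases before to 50 bases after a gene's start. Of the 33 measured members with such a window, 14 held a match, 42.4%, against 704 of 27025 genes in the whole table, 2.6%. Among other replication and nucleotide genes 18 of 60 held one, 30.0%, and among genes of G2 and M phase 1 of 18, 5.56%. CCAAT, searched on both strands and able to share end letters with these motifs, stood in 60.6% of the 33 members, 53.3% of the other replication genes, 83.3% of the G2 and M phase genes and 41.1% of all genes. In the following stretches, from 190 bases before to 10 bases after the start, written 5′ to 3′ along the gene's strand, capitals mark the E2F-type letters.
Rrm2 chr12:24708064-24708263 +: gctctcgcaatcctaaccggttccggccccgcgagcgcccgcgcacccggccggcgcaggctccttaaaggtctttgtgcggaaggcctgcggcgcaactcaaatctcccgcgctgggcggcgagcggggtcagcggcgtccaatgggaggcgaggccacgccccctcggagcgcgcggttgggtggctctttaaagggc
Pclaf chr9:65890133-65890332 +: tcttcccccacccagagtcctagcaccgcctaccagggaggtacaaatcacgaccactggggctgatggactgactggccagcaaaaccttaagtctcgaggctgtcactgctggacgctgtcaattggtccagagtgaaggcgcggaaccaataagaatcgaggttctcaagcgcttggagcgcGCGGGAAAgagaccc
Mcm5 chr8:75109319-75109518 +: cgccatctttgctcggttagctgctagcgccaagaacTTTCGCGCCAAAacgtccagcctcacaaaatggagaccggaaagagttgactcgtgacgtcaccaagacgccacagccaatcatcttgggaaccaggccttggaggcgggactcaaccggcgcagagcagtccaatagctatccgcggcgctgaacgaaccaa
Cdc6 chr11:98907961-98908160 +: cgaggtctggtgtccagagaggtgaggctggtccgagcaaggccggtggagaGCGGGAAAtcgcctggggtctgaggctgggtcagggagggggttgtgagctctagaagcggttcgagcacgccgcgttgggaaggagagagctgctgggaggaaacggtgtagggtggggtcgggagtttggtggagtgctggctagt
Tk1 chr11:117826005-117826204 -: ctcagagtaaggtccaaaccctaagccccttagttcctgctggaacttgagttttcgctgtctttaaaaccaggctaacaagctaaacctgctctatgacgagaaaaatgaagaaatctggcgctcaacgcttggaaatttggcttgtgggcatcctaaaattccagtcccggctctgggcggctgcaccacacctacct
Mcm6 chr1:128359696-128359895 -: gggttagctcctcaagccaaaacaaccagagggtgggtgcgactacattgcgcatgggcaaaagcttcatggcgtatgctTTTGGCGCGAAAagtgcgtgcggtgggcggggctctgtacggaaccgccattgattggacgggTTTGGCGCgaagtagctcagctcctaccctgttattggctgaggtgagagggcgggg
The Pclaf match began at position -5 relative to the start and the Cdc6 match at position -138. Mcm5 held overlapping matches from positions -153 and -149, and Mcm6 held matches from positions -110, -106 and -47. Rrm2 and Tk1 held none of these letters in the window. The 14 members with a match had a median log2 difference between genotypes (Msi1 -/- minus wild-type) of 0.20, and the 19 without had a median of 0.15. Their ranges, -0.03 to 0.59 and -0.08 to 0.71, overlapped widely, and the difference between them was not tested. A match is a description of letters and does not show that a factor binds there.

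The arrays were even in brightness, with median intensities between 159 and 164. Background on each array was taken as the level that 95% of 44 olfactory receptor probe sets stayed under, 154 to 167 per array. Msi1 itself, at its brightest probe set, read 144, 150.4 and 257 in the wild-type arrays and 141, 168 and 127 in the Msi1 -/- arrays. These values were above the background of their array only in wild-type replicate 3 and Msi1 -/- replicate 2. Where that probe set lies relative to the deleted part of the gene was not known here, so it does not check the labels. Wild-type replicate 3 stood apart in sex-linked transcripts, with Xist at 6226 against 131 to 387 in the other 5 arrays. Eif2s3y, a gene of the Y chromosome, read 88.2 there against 716 to 944 in the other 5. The genotypes were thus not balanced for these transcripts. All 10 ductal and epithelial markers, among them Krt19 and Epcam, were above background in all 6 arrays and so were all 10 fibroblast markers, which the label of tumour cells does not name. In such bulk RNA fewer cells of a type and less RNA per cell cannot be told apart.

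Replication and nucleotide genes averaged slightly higher in Msi1 -/- arrays, and no member passed the test. Of the 38 measured members 35 had a log2 difference above 0, against 50.2% of all genes, and the 3 below 0 were Rpa2, Rfc3 and Mcm6. The median log2 difference was 0.16 over the members and 0.0006 over all genes. Rrm2, a subunit of ribonucleotide reductase, Pclaf, a partner of the sliding clamp, and Mcm5 of the helicase ring had the largest differences, at 0.71 ± 0.35, 0.59 ± 0.29 and 0.51 ± 0.27 (SE, n = 3 per group). With limma and Benjamini-Hochberg adjustment over 45037 probe sets, 0 members and 0 probe sets (0.0%) had an adjusted p under 0.05, and the smallest adjusted p was 0.9997. At an unadjusted p under 0.05 there was 1 member by the probe sets used, Tk1, against 1.6% of all genes in the same direction. There were 0 lower, against 1.85%, and 1355 of all probe sets (3.01%) passed in either direction. Probe sets not used here, of Pclaf, Uhrf1, Rrm2, Gins2 and Mcm5, also had an unadjusted p under 0.05 (0.0072 to 0.038, limma). Each of these was higher in Msi1 -/- arrays. The groups did not overlap for 5 of the 38 members, each higher in Msi1 -/- arrays, against 4.0% of all genes, and for 0 members lower, against 4.28%.

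**Figure D1:**
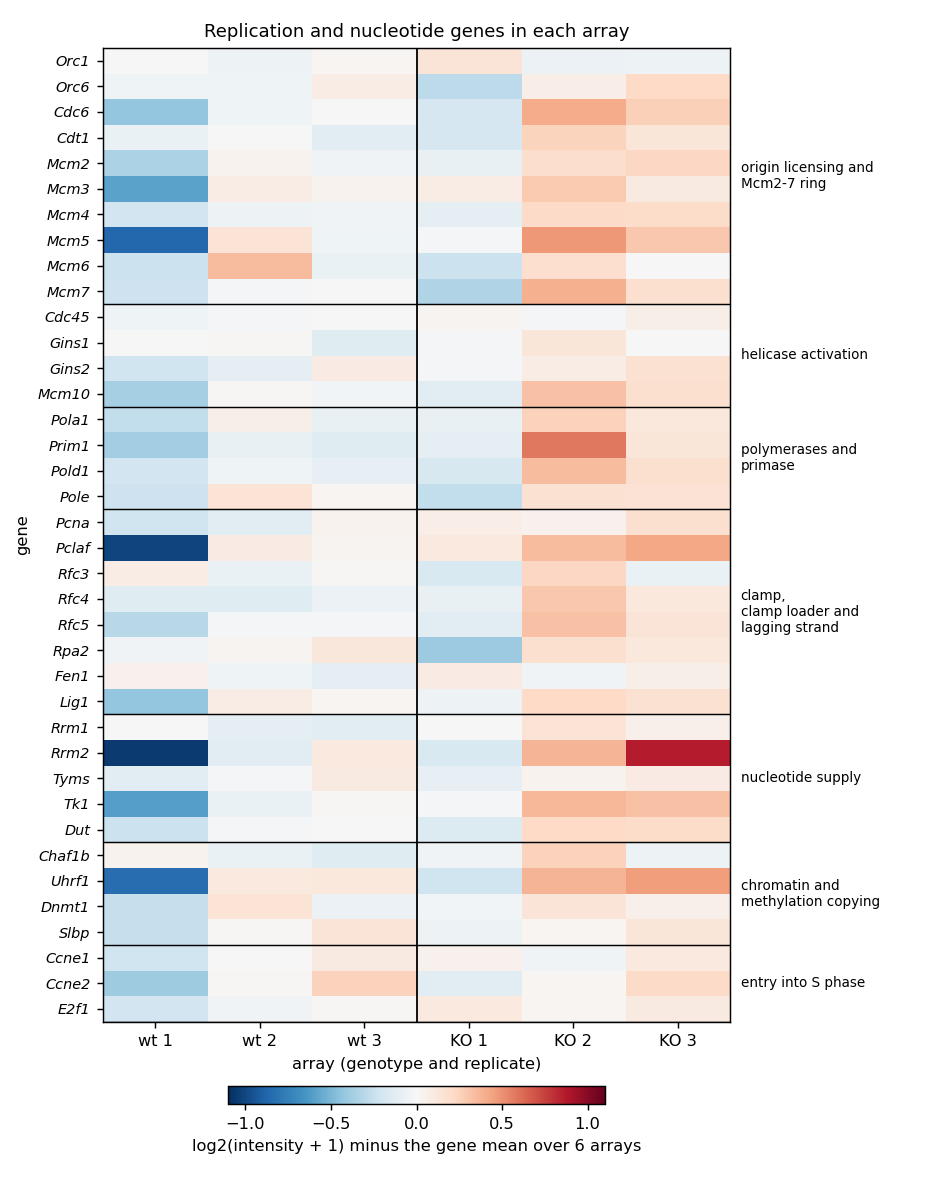
Colour map of the 38 members (rows, by function) in the 6 arrays (columns, 3 wild-type, marked wt, and 3 Msi1 -/-, marked KO). Colour is log2(intensity + 1) minus the gene's mean over the 6 arrays. Wild-type replicate 1 is blue, that is low, in most rows, and Msi1 -/- replicates 2 and 3 are red in most rows.

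The arrays of 1 genotype also differed among themselves. Wild-type replicate 1 had the lowest of the 6 values in 26 of the 38 members, against 17.9% of all genes, and the lowest wild-type value in 29, against 35.1% of all genes. Msi1 -/- replicate 2 had the highest of the 6 values in 21 members, against 19.9% of all genes, and replicate 3 in 9, against 13.7%. Msi1 -/- replicate 1 had the lowest Msi1 -/- value in 31 members, against 38.4% of all genes. It exceeded wild-type replicate 1 in 30 of the 38 members, but wild-type replicates 2 and 3 in only 13 each. Msi1 -/- replicates 2 and 3 exceeded each wild-type array in 30 to 36 members. The members' median log2 level, taken relative to each gene's mean over the arrays, was -0.23, -0.02 and -0.001 in wild-type replicates 1 to 3. In Msi1 -/- replicates 1 to 3 it was -0.08, 0.21 and 0.14, so replicate 1 lay within the wild-type range.

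Without wild-type replicate 1, 30 of the 38 members had a difference above 0, against 53.0% of all genes, and the median log2 difference was 0.10. The groups then did not overlap for 7 members higher in Msi1 -/- arrays, against 8.08% of all genes. The difference became smaller in 32 members, and in 23 of the 35 positive ones it shrank by more than 1.5 times or turned negative. Wild-type replicate 1 held the lowest wild-type value in 29 members, so smaller differences without it follow in part from arithmetic. Without Msi1 -/- replicate 1, 37 members were above 0, against 48.8% of all genes, and the median was 0.23. The groups then did not overlap for 23 members, against 12.9% of all genes, and 13 members had an unadjusted p under 0.05 (limma), against 3.93% of all genes in that direction, and none passed after adjustment. Without wild-type replicate 3, the array with high Xist, 35 members were above 0, against 49.0% of all genes, and the median was 0.21. The count at an unadjusted p under 0.05 was 2 without wild-type replicate 2 or 3, against 1.8% and 1.15% of all genes. It was 0 without wild-type replicate 1, Msi1 -/- replicate 2 or Msi1 -/- replicate 3, against 0.764%, 1.23% and 1.71%. Members higher without overlap numbered 8 when wild-type replicate 2 was left out and 9 when replicate 3 was, against 8.49% and 7.13% of all genes. They numbered 7 without Msi1 -/- replicate 2 and 5 without Msi1 -/- replicate 3, against 7.87% and 9.28%. Without Msi1 -/- replicate 2, 1 more member was lower without overlap, against 9.09% of all genes.

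**Figure D2:**
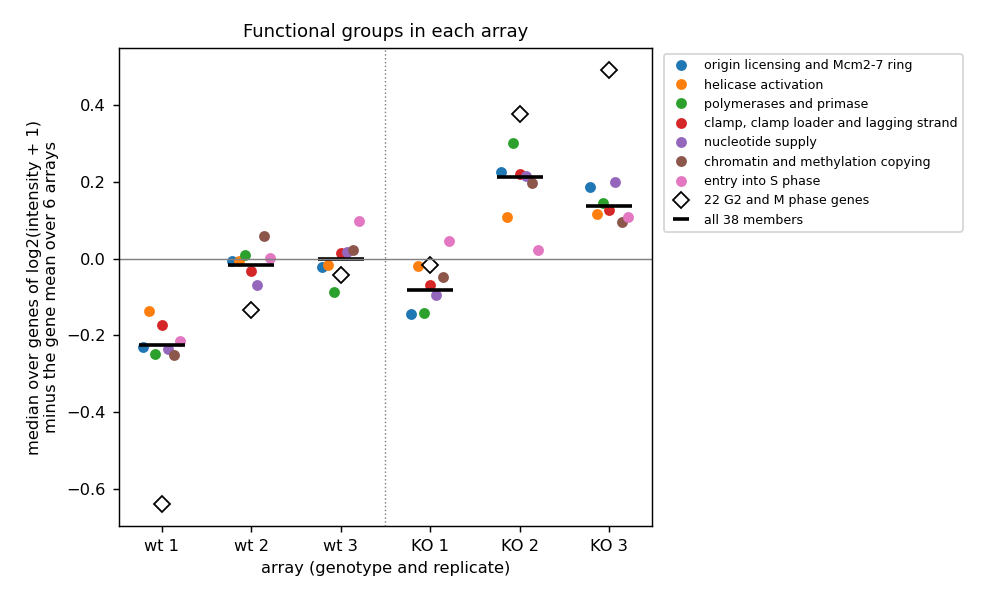
Median log2 level of each functional group (coloured points), of all 38 members (black bars) and of 22 G2 and M phase genes (diamonds) in each array, relative to each gene's mean over the 6 arrays. Wild-type replicate 1 is lowest in all 7 groups, at -0.25 to -0.14, and Msi1 -/- replicate 1 lies at -0.14 to 0.05.

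Among the origin licensing genes and the Mcm2 to Mcm7 ring, 9 of 10 had a difference above 0, with a median of 0.18. Mcm5, a ring subunit, read 373, 755 and 658 in the wild-type arrays and 671, 946 and 836 in the Msi1 -/- arrays (probe set 1436808_x_at). The low wild-type replicate 1 stood out, Msi1 -/- replicate 1 lay between the other wild-type arrays, and without wild-type replicate 1 the log2 difference was 0.20. A dimmer Mcm5 probe set gave 0.54 ± 0.21 and another, below background, -0.04 ± 0.07 (SE). Mcm3, likewise of the ring, read 362, 574 and 558 in wild-type and 576, 662 and 581 in Msi1 -/- arrays, a log2 difference of 0.31 ± 0.19 (SE, n = 3 per group). Its groups did not overlap, but only by the step from 574 to 576, and the difference was 0.10 without wild-type replicate 1.

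Mcm6 showed no such direction. It read 943, 1419 and 1060.1 in wild-type and 946, 1268 and 1116 in Msi1 -/- arrays, with a log2 difference of -0.03 ± 0.18 (SE) and its highest value in wild-type replicate 2. All 3 Mcm6 probe sets gave negative differences, from -0.06 to -0.03. The other ring genes Mcm2, Mcm4 and Mcm7 differed by 0.23 ± 0.14, 0.20 ± 0.13 and 0.16 ± 0.19 (SE). For Mcm7 Msi1 -/- replicate 1 was the lowest of the 6 arrays, at 1528, and replicate 2 the highest, at 2522.

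The loading factors differed among themselves. Cdc6, an ATPase that helps load the ring, read 119, 154 and 159 in wild-type and 140.5, 212 and 191 in Msi1 -/- arrays, a log2 difference of 0.32 ± 0.17 (SE), with 2 of the 6 values above background. Cdt1, its partner in loading, differed by 0.13 ± 0.13. The subunits of the origin recognition complex gave values near 0, with Orc6 at 0.003 ± 0.14 and Orc1 at 0.02 ± 0.07 (SE). Orc1 was below background in all 6 arrays, so its value says little.

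All 4 genes of helicase activation had differences above 0, with a median of 0.12. Mcm10, which helps start the helicase, read 152, 197 and 192 in wild-type and 180.0, 245 and 221 in Msi1 -/- arrays, a log2 difference of 0.25 ± 0.14 (SE). The groups overlapped, since Msi1 -/- replicate 1 lay below wild-type replicates 2 and 3. Gins2, Gins1 and Cdc45, components of the active helicase, differed by 0.15 ± 0.11, 0.08 ± 0.08 and 0.05 ± 0.06 (SE). Cdc45 spanned only 1.08-fold from its lowest to its highest array.

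The 4 polymerase and primase genes also had differences above 0, with a median of 0.21. Prim1 (1418369_at), the catalytic primase that makes the RNA primers, read 236, 291 and 281 in wild-type and 287, 461 and 338 in Msi1 -/- arrays. Its log2 difference was 0.40 ± 0.18 (SE; unadjusted p = 0.0563, limma), and Msi1 -/- replicate 2 stood high while replicate 1 lay within the wild-type range. A second, dimmer Prim1 probe set gave 0.28 ± 0.17 (SE). Pold1, Pola1 and Pole, the catalytic subunits of polymerases delta, alpha and epsilon, differed by 0.23 ± 0.15, 0.19 ± 0.12 and 0.04 ± 0.15 (SE). Without wild-type replicate 1 the Pole value was -0.07.

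**Figure D3:**
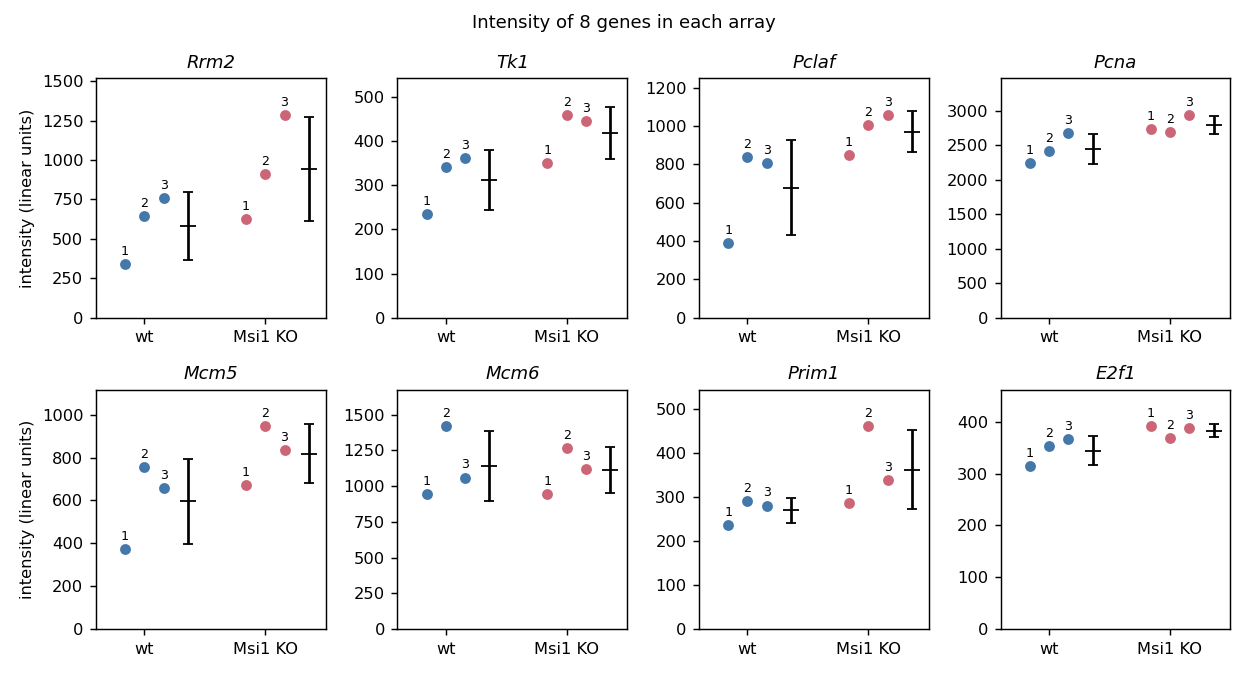
Intensity (linear scale from 0) of 8 members in each array. Points are arrays, numbered by replicate, and black marks give the mean ± SD (n = 3). Pclaf, Pcna and E2f1 do not overlap between the genotypes, whereas Mcm6 has its highest value, 1419, in wild-type replicate 2.

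Of the 8 genes of the sliding clamp, its loader and the lagging strand, 6 had differences above 0, with a median of 0.21. Pcna (1417947_at), the clamp itself, read 2246, 2414 and 2677 in wild-type and 2737, 2699 and 2942 in Msi1 -/- arrays, means of 2446 ± 217 and 2793 ± 131 (SD, n = 3). All Msi1 -/- values lay above all wild-type values, with 2677 and 2699 as the closest, and the log2 difference of 0.19 ± 0.10 (SE) had an unadjusted p of 0.0982 in limma. Pclaf (1419153_at), which binds Pcna at replication forks, read 392, 839.7 and 807 in wild-type and 851, 1005 and 1059 in Msi1 -/- arrays. Here too the groups did not overlap, but wild-type replicate 1 lay far below the rest, and without it the log2 difference was 0.23. Another Pclaf probe set, near background with a mean of 136, gave 0.55 ± 0.15 (SE).

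Clamp loader subunits Rfc5 and Rfc4 differed by 0.23 ± 0.14 and 0.22 ± 0.10, and the third loader gene, Rfc3, by -0.01 ± 0.11 (SE). Rfc3 read 251, 226 and 239.7 in wild-type and 211, 278 and 225 in Msi1 -/- arrays, with the lowest and the highest value both in Msi1 -/- arrays. Rpa2, a subunit of the protein that coats single-stranded DNA, had the most negative difference, -0.08 ± 0.16 (SE). It read 329, 345 and 368 in wild-type and 255, 381 and 365 in Msi1 -/- arrays, so that replicate 1 of the Msi1 -/- group alone was low, and without it the difference was 0.10. Lig1, the ligase that joins Okazaki fragments, and Fen1, the nuclease that trims them, differed by 0.22 ± 0.16 and 0.07 ± 0.10 (SE).

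All 5 genes of nucleotide supply had differences above 0, with a median of 0.17. Rrm2 (1434437_x_at), the subunit of ribonucleotide reductase that is made mainly in S phase, read 338, 646 and 759 in wild-type and 628, 912 and 1286 in Msi1 -/- arrays. It spanned 3.8-fold between its lowest and highest array, the widest span among the members, and the groups overlapped because Msi1 -/- replicate 1 lay below wild-type replicates 2 and 3. Its other 2 probe sets gave log2 differences of 0.72 ± 0.29 and 0.51 ± 0.19 (SE), and without wild-type replicate 1 the difference was 0.37. Rrm1, the large subunit of the same enzyme, read 787, 735 and 718 in wild-type and 789, 874 and 818 in Msi1 -/- arrays. The groups did not overlap, by the step from 787 to 789, and the log2 difference was 0.15 ± 0.10 (SE) with all arrays and 0.19 without wild-type replicate 1, which was the highest wild-type array for this gene.

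Tk1 (1416258_at), the thymidine kinase of the salvage pathway, read 235, 341 and 362 in wild-type and 352, 460.0 and 447 in Msi1 -/- arrays. Msi1 -/- replicate 1 lay just below wild-type replicate 3, so the groups overlapped. The log2 difference was 0.44 ± 0.19 (SE; unadjusted p = 0.0482, adjusted p = 0.9997, limma) and was 0.25 without wild-type replicate 1. Dut, which removes dUTP, differed by 0.17 ± 0.14 (SE). Tyms, thymidylate synthase, gave 0.02 ± 0.07 (SE), but its 4 probe sets were below background in all arrays, so its level was not measured well.

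Genes that restore chromatin and methylation behind the fork had a median difference of 0.11, and all 4 measured ones were above 0. Without wild-type replicate 1 the median was 0.05 and 3 of 4 were above 0. Uhrf1 (1415810_at), which recognises newly copied, hemimethylated DNA, read 186, 359 and 361 in wild-type and 287, 432 and 459.5 in Msi1 -/- arrays. Wild-type replicate 1 and Msi1 -/- replicate 1 were both low, and the log2 difference of 0.41 ± 0.29 (SE) was 0.10 without wild-type replicate 1. A dimmer Uhrf1 probe set, above background in 2 of the 6 arrays, gave 0.27 ± 0.09 (SE) with no overlap. Dnmt1, the maintenance methyltransferase that Uhrf1 recruits, Chaf1b, a histone chaperone subunit, and Slbp, which binds histone mRNA, differed by 0.11 ± 0.13, 0.11 ± 0.10 and 0.07 ± 0.13 (SE). Without wild-type replicate 1 these values were 0.01, 0.15 and -0.04.

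The 3 regulators of entry into S phase had the lowest median, 0.08, and without wild-type replicate 1 it was -0.01, with 1 of 3 above 0. E2f1 (1431875_a_at), a transcription factor of S phase genes, read 314, 354 and 367 in wild-type and 392, 369 and 389 in Msi1 -/- arrays. The groups did not overlap, with 367 and 369 as the closest values, and the log2 difference was 0.15 ± 0.09 (SE). Ccne1 and Ccne2, the E-type cyclins, differed by 0.08 ± 0.11 and 0.08 ± 0.16 (SE), and without wild-type replicate 1 by -0.01 and -0.10. Ccne2 was above background in 1 of the 6 arrays.

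**Figure D4:**
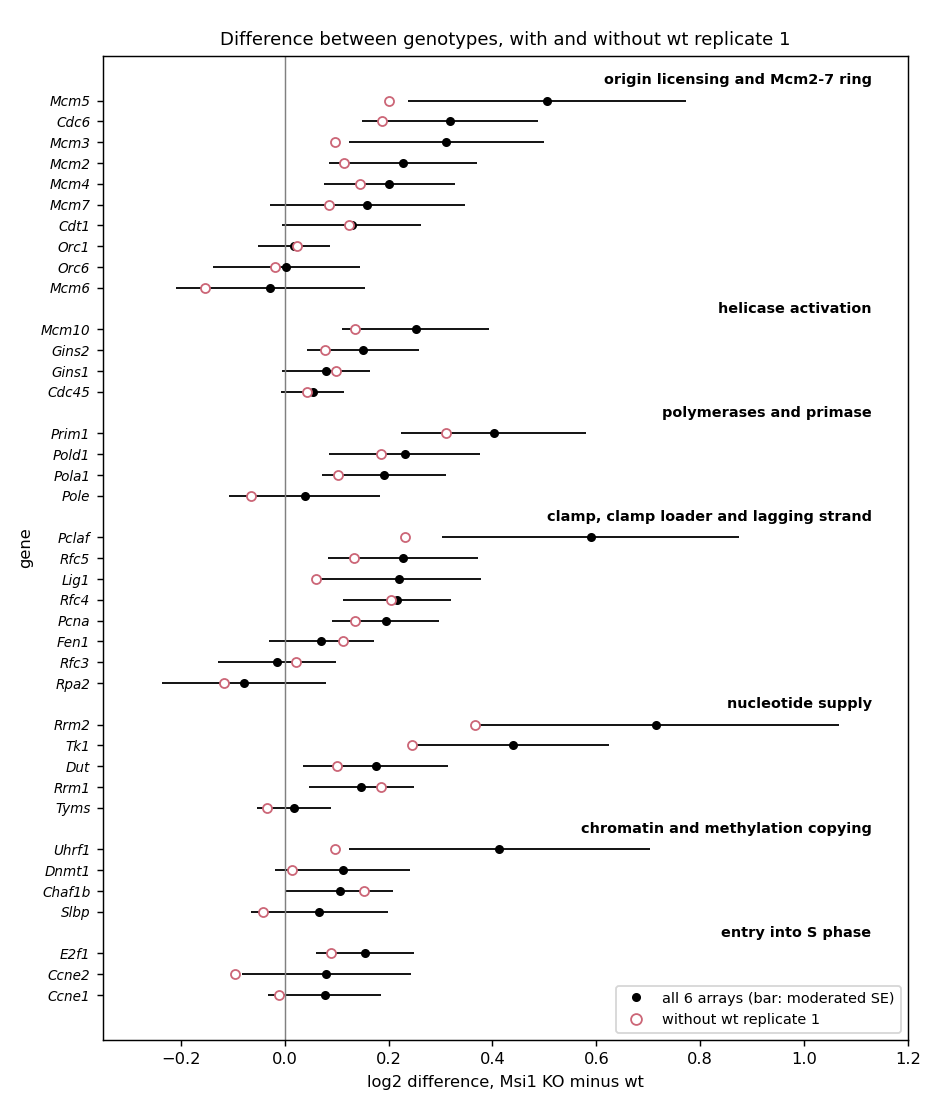
Log2 difference (Msi1 -/- minus wild-type) of each member, by function. Black points use all 6 arrays, with bars of the moderated SE, and open red points leave out wild-type replicate 1. Most open points lie closer to 0, such as Uhrf1, which goes from 0.41 to 0.10.

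Further probe sets of the same genes mostly pointed the same way. The 38 members had 85 probe sets, and of the 47 not used above 28 were above background in at least 1 array, 27 of them with the sign of the one used. The remaining 19 were above background in 0 arrays, and 14 of these had that sign. Of the members read, 32 were above background in all 6 arrays, 4 in some and 2 (Orc1 and Tyms) in none. The probe sets of 8 members had names ending in _s_at or _x_at, which mark probes that can also match other transcripts. Among the members the moderated SE ranged from 0.0615 to 0.353, and in 16 of 38 it was larger than the difference itself.

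Other genes of the pathway had a smaller median difference. The lists were chosen with earlier results of these data known, which may affect this comparison, and the difference between the lists was not tested. Of 75 further replication and nucleotide genes measured, 50 had a difference above 0, against 50.2% of all genes. Their median was 0.04, and 0 passed the adjusted threshold in limma. At an unadjusted p under 0.05 there were 3, all higher, against 1.6% of all genes. The groups did not overlap for 4 genes higher in Msi1 -/- arrays, against 4.0% of all genes, and for 2 lower, against 4.28%. Without wild-type replicate 1, 42 were above 0, against 53.0% of all genes, and the median was 0.02. In that setting 1 had an unadjusted p under 0.05, against 0.764% of all genes. The largest positive differences were those of Top2a, the topoisomerase of dividing cells (0.72 ± 0.30), Atad2, a chromatin ATPase and E2F target (0.42 ± 0.15), Pole2, a subunit of polymerase epsilon (0.34 ± 0.11), and Hells, a chromatin remodeller (0.30 ± 0.24, SE). Atad2 read 283, 384 and 385 in wild-type and 419.7, 488 and 491 in Msi1 -/- arrays, without overlap, and 0.27 without wild-type replicate 1. The largest negative ones were those of Cdkn1a, the p53-induced inhibitor of cyclin-dependent kinases (-0.43 ± 0.26), Rnaseh2b, a subunit of ribonuclease H (-0.20 ± 0.11), E2f3, an E2F factor (-0.18 ± 0.12), and Rrm2b, the p53-induced reductase subunit (-0.15 ± 0.09, SE). The Cdkn1a value rested on Msi1 -/- replicate 2, at 900.3, against 1569 and 1859 in the other Msi1 -/- arrays and 1660 to 2165 in wild-type. Of 16 other genes of nucleotide synthesis, salvage and breakdown 8 were above 0, against 50.2% of all genes, with a median of 0.01. Without wild-type replicate 1 there were 5 of 16, against 53.0% of all genes, with a median of -0.04.

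Genes listed under G2 and M phase had larger differences in the same arrays. All 22 measured had a difference above 0, against 50.2% of all genes, with a median of 0.56, and 0 passed the adjusted threshold in limma. The groups did not overlap for 13 of them, each higher in Msi1 -/- arrays, against 4.0% of all genes. At an unadjusted p under 0.05 there were 19, against 1.6% of all genes in that direction. Without wild-type replicate 1 the median was 0.38 and 9 had an unadjusted p under 0.05, against 0.764% of all genes. Ube2c, a ubiquitin-conjugating enzyme of mitosis, Ccna2, cyclin A, Cdk1, the mitotic kinase, and Top2a differed by 1.03 ± 0.29, 0.79 ± 0.26, 0.76 ± 0.26 and 0.72 ± 0.30 (SE). The median level of the 22 genes was -0.64, -0.13 and -0.04 in wild-type replicates 1 to 3. In Msi1 -/- replicates 1 to 3 it was -0.02, 0.38 and 0.49. Msi1 -/- replicate 1 thus lay above all wild-type arrays, but only just above wild-type replicate 3. Top2a is in both lists, and the difference between the lists was not tested.

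**Figure D5:**
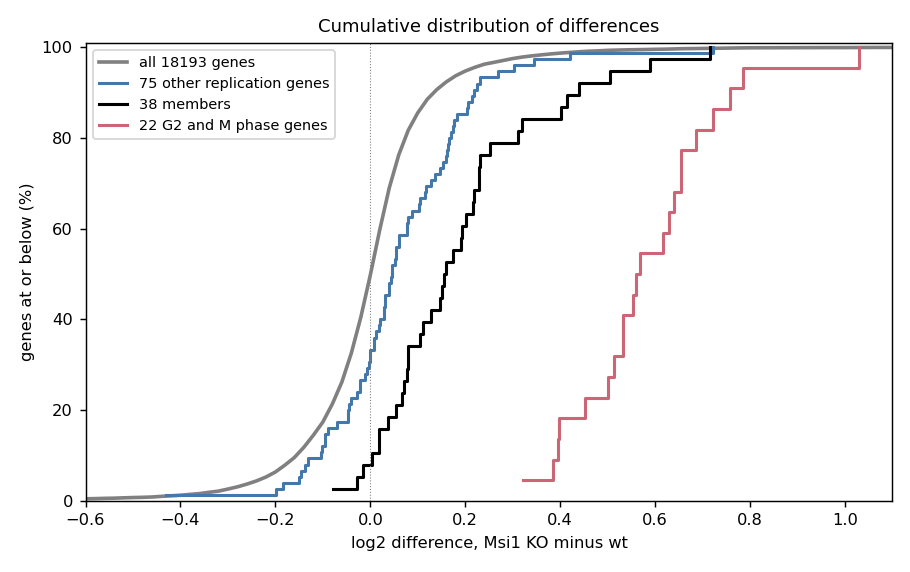
Share of genes (vertical axis, %) with a log2 difference (Msi1 -/- minus wild-type, horizontal axis) at or below each value. The curve of the 38 members, with a median of 0.16, lies between those of 75 other replication genes (0.04) and 22 G2 and M phase genes (0.56), and the grey curve of all 18193 genes passes 0 near its middle. The lists were chosen with earlier results of these data known.

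The summed levels of markers of other cell types also differed between arrays. The 6 measured B cell markers were all higher on average in Msi1 -/- arrays, and their summed intensity was 995, 1633 and 1445 in wild-type replicates 1 to 3 and 1196, 2750.0 and 1815 in Msi1 -/- replicates 1 to 3. The lowest and highest arrays were thus wild-type replicate 1 and Msi1 -/- replicate 2, as for the replication genes. The 9 T and NK cell markers were likewise all higher on average, with sums of 1380 to 1676 in wild-type and 1708 to 2279 in Msi1 -/- arrays, lowest and highest in the same arrays. Only 2 of the B cell and 3 of the T and NK cell markers were above background in all arrays.

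Endothelial markers averaged higher for 6 of 6 genes, with sums of 3846 to 5104 in wild-type and 4434 to 6618 in Msi1 -/- arrays. Acinar markers averaged lower for 10 of 10, with sums of 36250 to 55704 against 12702 to 35139. Epithelial markers were higher for 4 of 10 (55582 to 63157 against 51520 to 71564), fibroblast markers for 6 of 10 (51715 to 56406 against 44779 to 66600), macrophage markers for 6 of 9 (36479 to 43652 against 30954 to 52646) and neutrophil markers for 4 of 6 (4527 to 6525 against 3638 to 8142). No list's markers were all below background. The ratio between the 3′ and 5′ control probes of Gapdh, which grows as RNA is degraded, was 1.55, 1.86 and 1.67 in wild-type and 1.38, 1.6 and 1.61 in Msi1 -/- arrays. The part of cell composition or RNA quality in the levels of the replication genes was not tested.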

How the data were processed

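RNA from 6 samples was labelled with biotin and hybridised to Affymetrix mouse arrays. The authors deposited 1 table of probe set intensities, made with GCRMA per the submitters' processing notes, with no version given. The intensity values are linear, from 51.2 to 20364.72, and the sources used here do not say whether they were rescaled afterwards. Values near background may understate the differences of dim genes, which was not tested. From 45101 probe sets 64 controls were left out, and 34945 of the remaining 45037 had 1 symbol, updated through Entrez identifiers with a RefSeq table (34741 matched). A linear model of log2(intensity + 1) on genotype was fitted to all 45037 with lmFit and a trended eBayes (limma 3.58.1, R 4.3.3), with Benjamini-Hochberg adjustment at 0.05. The SE is limma's moderated one, with a median of 0.14 over members and 0.0815 over all probe sets, and the number of arrays limits the precision. On simulated data of the same 45037 probe sets the fit, so checked, recovered 94.6% of changes of log2 1 and 99.4% of log2 2, with a mean of 10 false calls beside 200 changed probe sets.

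The members and gene lists were chosen with earlier results of these data known. Values of every array are given for members without overlap, with an unadjusted p under 0.05, below 0, or with the largest difference in their function group, and additionally for Cdc6, Atad2 and Cdkn1a, chosen after their values were seen. Of the other lists the 4 largest differences in each direction are named. The 15 alternatives are given in the closing section. Whether replicate numbers pair the samples was not settled here. Correlations of deviations from group means were 0.17, -0.09 and 0.28 for arrays of the same number, and -0.26 to 0.058 for arrays of different numbers.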

Additional observations from a re-analysis of the deposited data

How the results depend on the processing

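No member passed the adjusted threshold under any of the 15 alternatives (limma). The median log2 difference of the members stayed between 0.13 and 0.18 under the 9 alternatives that kept all arrays and ran from 0.10 (without wild-type replicate 1) to 0.23 (without Msi1 -/- replicate 1) when 1 array was left out. Members above 0 were 25 of the 27 left by the filter at a mean log2 value of 8, against 45.5% of all genes left. With 1 array left out they were 30 to 37 of 38, against 48.8% to 53.0% of all genes. The count of members with an unadjusted p under 0.05, 1 in the main setting, was 8 with array weights (2.75% of all genes in that direction), 2 with median centring (1.59%), 3 with quantile normalization (1.69%), 3 with probe sets averaged per gene (1.66%) and 0 with the filters at 7 (1.5%) and 8 (1.29%), and 0 to 13 with 1 array left out. With the replicate block it was 9 (2.65%), but replicate numbers are only shared labels here. Arrays of the same number correlated best for replicates 1 (0.17) and 3 (0.28). Wild-type replicate 2 correlated weakly with every Msi1 -/- array (-0.09 to 0.053). Whether the block reflects a true pairing was therefore not settled, and its count is not read as a paired result. Members without overlap numbered 5 to 23 and probe sets past the adjusted threshold 0 to 1 with 1 array left out; the 1 was Ighm, an immunoglobulin gene (adjusted p = 0.0426 in limma without Msi1 -/- replicate 1), named after its value was seen. Signs turned for 10 members, whose log2 differences with 1 array left out ran from -0.048 to 0.054 (Orc1), -0.11 to 0.15 (Orc6), -0.15 to 0.14 (Mcm6), -0.066 to 0.18 (Pole), -0.13 to 0.067 (Rfc3), -0.18 to 0.10 (Rpa2), -0.035 to 0.072 (Tyms), -0.042 to 0.15 (Slbp), -0.012 to 0.15 (Ccne1) and -0.10 to 0.23 (Ccne2). With array weights Orc1 was -0.021, Rfc3 0.04 and Rpa2 0.015, and with probe sets averaged per gene Rfc3 was 0.024. The cause was not tested. Signal near background limits Orc1, Tyms, Ccne2 and Cdc6.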
